A study of Mus musculus with 44 samples.

Results

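Fatty acid oxidation enzymes were measured in macrophages (MFs) sorted from injured mouse muscle, by one-colour Affymetrix gene arrays of their total RNA. A list of 38 symbols was used, covering the activation of fatty acids, their transfer as carnitine esters, mitochondrial and peroxisomal beta-oxidation, the related breakdown of branched-chain amino acids, and the electron carriers that serve these steps. A member was kept when a probe set carried its symbol and no other, and the brightest such probe set stood for it. By this rule 37 of the 38 symbols were measured, among 19938 genes in all. Acsl3 shared its probe set with another gene and was left out.

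In beta-oxidation, a fatty acid is bound to coenzyme A, handed to carnitine, carried into the mitochondrion and returned to coenzyme A. A dehydrogenase, a hydratase, a hydroxyacyl dehydrogenase and a thiolase then act in turn to release acetyl-CoA, and electron transfer flavoprotein passes the electrons of the first step to the respiratory chain. Peroxisomes shorten very long and branched chains with enzymes of their own, and extra isomerases and reductases handle double bonds. In MFs this pathway is known as a fuel route of cells in a repair state, and many of its genes are targets of PPAR nuclear receptors in other tissues.

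The tibialis anterior muscle was injured with cardiotoxin, a snake venom toxin that kills muscle fibers, and CD45+ cells were sorted after 1, 2 or 4 days into Ly6C+ F4/80low MFs, the early inflammatory cells, and Ly6C- F4/80high MFs, the later repair cells. WT animals were C57B6/J, and KO animals carried PPARg fl/fl and LysM Cre+ on C57B6/J, which deletes PPARg in cells that use the Lyz2 (LysM) promoter, that is in myeloid cells. Of the 44 arrays, 4 were of WT and 4 of KO Ly6C+ MFs at day 1. At day 2 there were 6 WT Ly6C+, 6 WT Ly6C-, 5 KO Ly6C+ and 5 KO Ly6C- arrays, and 3 Ly6C+ and 3 Ly6C- arrays from WT animals given rosiglitazone, a PPARg agonist. At day 4 there were 4 WT and 4 KO arrays, all labelled Ly6C+. The groups other than the rosiglitazone groups were non-treated, and age, sex and dose are not given in the labels. The replicates are called biological in the labels, and the design text speaks of muscle of 3 animals without saying whether each array pooled them, so p-values measure only the spread between arrays.

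Several arrays stood apart from their labels. Lyz2, where the Cre allele sits, ran from 9.07 to 9.96 on the log2 scale over the KO arrays and from 12.81 to 13.19 over the WT arrays of day 1, day 4 and rosiglitazone treatment. In the WT day 2 arrays it was 8.67 to 9.29 in replicates 1 to 3 of both subsets and 12.64 to 13.02 in replicates 4 to 6. The arrays labelled WT day 2, replicates 1 to 3, were thus in or below the KO range of Lyz2, and the members called in each comparison with WT day 2 arrays are given with and without each set. Pparg itself was 10.31 ± 0.38 (SD, n = 6) in WT and 10.39 ± 0.13 (SD, n = 5) in KO Ly6C+ MFs at day 2, and whether its probes lie in the deleted part is not given in the sources used here. Ly6c1 and Ly6c2, which have a probe set in common, read 9.88 ± 0.25 (SD, n = 4) in the WT arrays labelled Ly6C+ at day 4, between 11.91 ± 0.15 (SD, n = 6) in WT Ly6C+ and 8.78 ± 0.12 (SD, n = 6) in WT Ly6C- MFs at day 2. Adgre1, which encodes F4/80, was 12.27 ± 0.06 (SD, n = 4) there against 11.53 ± 0.11 and 12.08 ± 0.08 (SD, n = 6 each). The day 4 arrays were for this reason set against both day 2 subsets. In the KO arrays of day 4 the same Ly6c1 and Ly6c2 probe set read 9.83 ± 0.71 (SD, n = 4), from 9.21 to 10.78. These arrays thus varied more in this sort marker than the WT arrays of day 4. Adgre1 read 12.27 ± 0.09 (SD, n = 4) in them.

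The members as a set had 2 levels, shown in the plot of group means. The mean over the 37 members ran from 8.11 to 8.37 on the 8 day 1 arrays and from 8.23 to 8.65 on the 14 Ly6C+ arrays of day 2. It ran from 8.96 to 9.17 on the 14 Ly6C- arrays of day 2 and from 8.91 to 9.16 on the 8 day 4 arrays, so the 2 ranges of arrays did not overlap. Of the 37 members, 29 had their lowest group mean at day 1, 13 in WT and 16 in KO MFs. The highest group mean fell in a Ly6C- group of day 2 for 26 members, 11 of them in KO, 8 in rosiglitazone-treated and 7 in non-treated WT MFs, and at day 4 for 9 members. Since the RNA came from many cells, fewer cells of a type and less RNA per cell cannot be told apart in any of these levels.

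**Figure D1:**
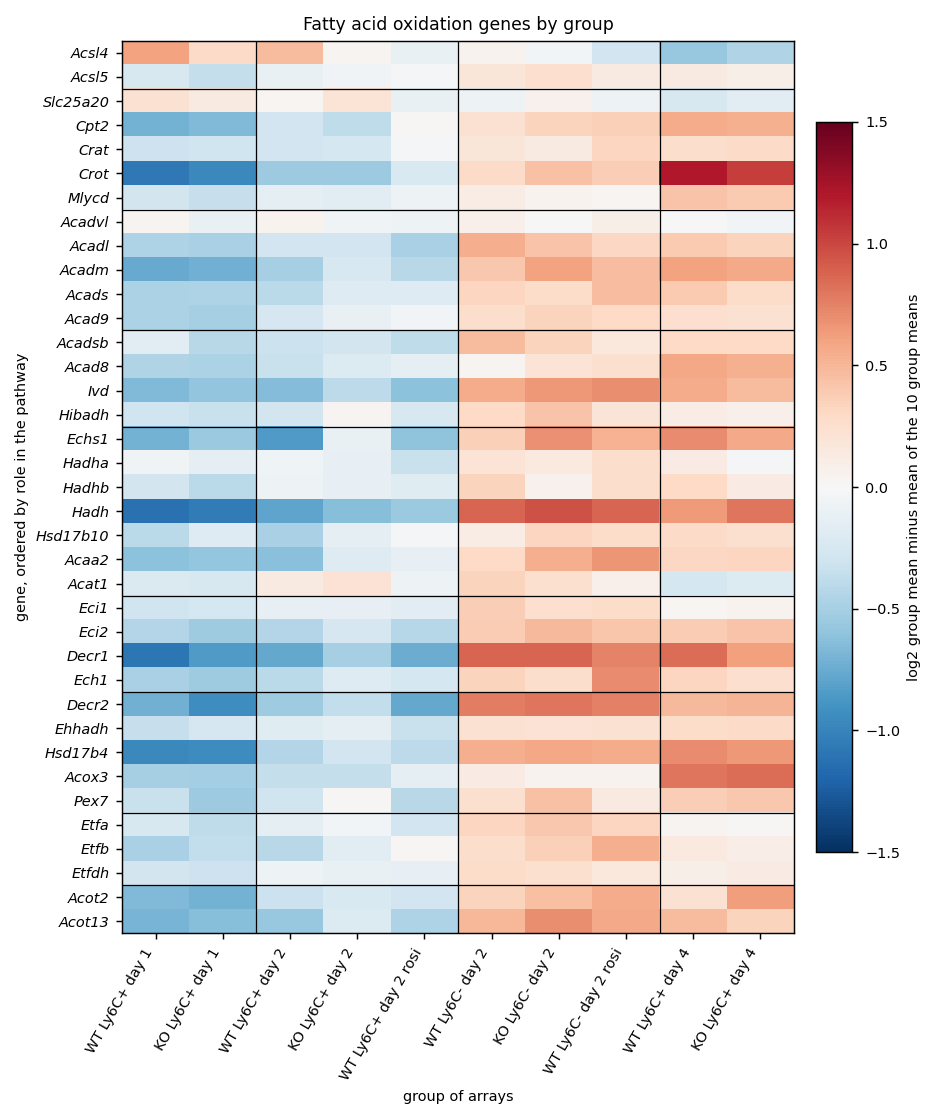
Mean log2 level of each of the 37 members in the 10 groups, shown as the difference from that member's mean over the groups, with members in rows ordered by role and groups in columns. Most rows are low in the Ly6C+ groups of days 1 and 2 and high in the Ly6C- groups of day 2 and at day 4, while Acsl4 runs the other way.

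Because the members moved together, the promoters were searched for the direct repeat that PPAR and RXR bind as a pair. The motif was AGGTCA, 1 free base and AGGTCA again, with up to 2 mismatches and on both strands, in windows from 250 bases before to 50 after each RefSeq start (GRCm38.p6). Of the 37 members, 30 had a window and 3 of these (10%) held a match, against 4.4% of the 27025 genes with a window. With up to 1 mismatch 0 of 30 members and 0.644% of genes matched. The estrogen-related receptor motif TCAAGGTCA was found in 0 of 30 members and in 0.466% of genes. A match is a description of letters and neither a binding site nor a cause, and no match says only that these letters are not in the window. The 3 windows with a match are shown 5′ to 3′ on the strand of the gene, from 150 bases before the start up to the start or, in Slc25a20, to the end of the match, with the matching letters in capitals. They belong to Echs1 (chr7:140116422-140116571, minus strand), Etfa (chr9:55512244-55512393, minus strand, with the match on the opposite strand) and Slc25a20 (chr9:108661986-108662154, plus strand).
Echs1: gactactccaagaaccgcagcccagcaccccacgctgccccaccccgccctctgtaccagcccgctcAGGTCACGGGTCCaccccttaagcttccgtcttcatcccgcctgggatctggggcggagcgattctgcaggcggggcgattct
Etfa: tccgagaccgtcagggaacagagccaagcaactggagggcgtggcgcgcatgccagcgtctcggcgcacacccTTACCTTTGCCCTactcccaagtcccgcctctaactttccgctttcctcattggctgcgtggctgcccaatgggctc
Slc25a20: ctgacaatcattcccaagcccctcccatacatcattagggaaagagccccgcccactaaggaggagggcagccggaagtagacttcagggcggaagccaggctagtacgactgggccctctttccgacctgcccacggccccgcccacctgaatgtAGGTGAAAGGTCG
The matches began 83 bases before the start in Echs1, 77 before it in Etfa, and at transcribed base 7 in Slc25a20. As described below, Echs1 and Etfa were higher in Ly6C- MFs and Slc25a20 was not called between the subsets.

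The first comparison asked how the subsets of one day differ. At day 2, fatty acid oxidation enzymes were higher in WT Ly6C- than in WT Ly6C+ MFs across nearly every step of the pathway. Of 37 members, 33 rose and 1 fell at an adjusted p below 0.05 (limma), where 22.2% of all genes rose and 23% fell, and 18 members rose by at least 1.5-fold, as 7.05% of genes did. Differences are given on the log2 scale with their standard error (±) and the limma adjusted p. The median difference was 0.57 over the members and -0.07 over all genes. In 25 members the lowest Ly6C- array lay above the highest Ly6C+ array, which held for 9.94% of genes. Without WT replicates 1 to 3, 29 members rose and 0 fell, and without replicates 4 to 6, 31 rose and 1 fell.

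The contrast was also present in KO and in rosiglitazone-treated MFs. In KO MFs 31 members rose and 0 fell, against 19.8% and 18.6% of genes, with a median member difference of 0.45, and 15 rose by at least 1.5-fold (6.41% of genes). In rosiglitazone-treated MFs, with 3 arrays on each side, 27 rose and 0 fell, against 14.6% and 8.68% of genes, with a median of 0.55, and 17 by at least 1.5-fold (6.94% of genes). All Ly6C- arrays lay above all Ly6C+ arrays for 29 members in KO MFs (17.6% of genes) and for 31 in treated MFs (18.2% of genes). All 31 members called in KO and all 27 called in treated MFs were among the 33 called in WT. That is 93.9% and 81.8% of the WT calls. Nearly all members were called in WT, so most calls of the other contrasts would fall among them in any case. The difference between the genotypes' subset contrasts was called for 0 members (0.01% of genes), with 0 members and 2.8% of genes at an unadjusted p below 0.05. That between treated and non-treated MFs was also called for 0 (0.015% of genes), with 2 members and 7.76% of genes unadjusted. Both counts stayed at 0 without either set of WT replicates.

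**Figure D2:**
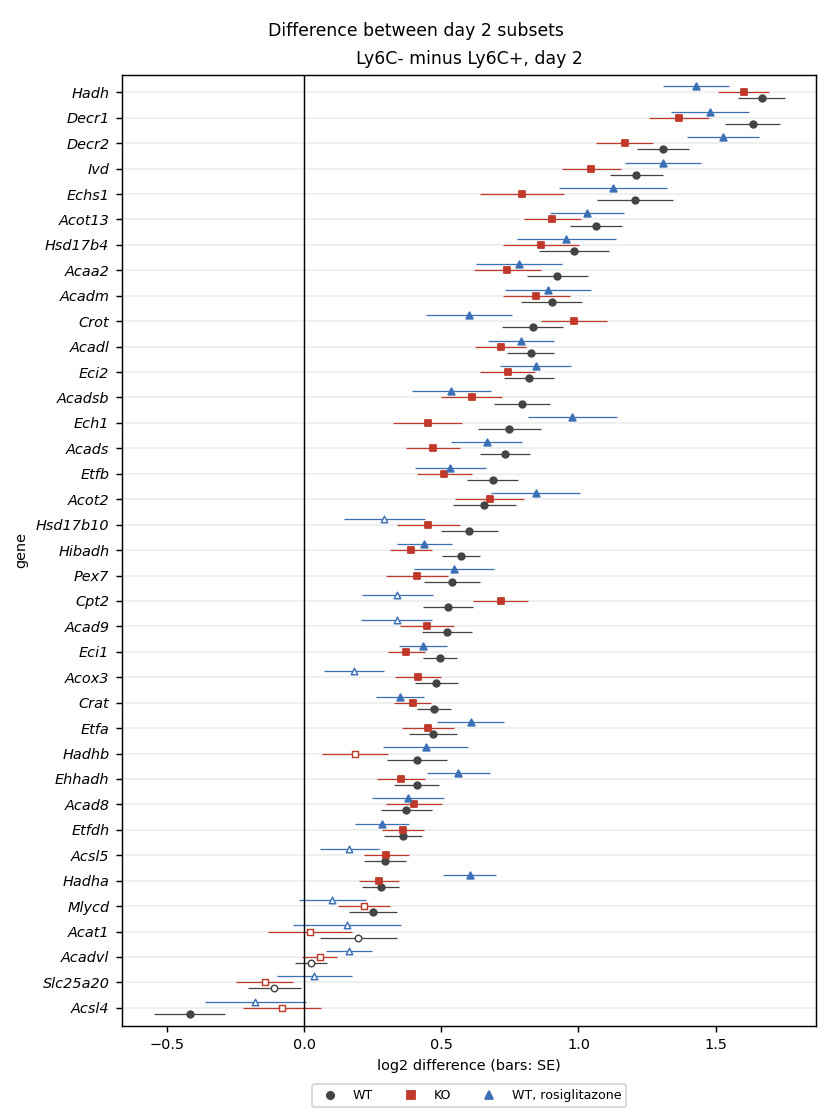
Log2 difference between Ly6C- and Ly6C+ MFs at day 2 for each member, with its standard error, in non-treated WT, KO and rosiglitazone-treated WT MFs, with filled points for members called at an adjusted p below 0.05. Nearly all points lie to the right of 0, with Hadh, Decr1, Decr2 and Ivd the farthest, and Acsl4, Slc25a20, Acadvl and Acat1 near or below 0.

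At the entry to the pathway the pattern was mixed. Acsl4, an acyl-CoA synthetase that prefers arachidonic acid, read 9.17 to 10.17 (median 9.87) in WT Ly6C+ and 8.93 to 9.63 (median 9.46) in WT Ly6C- MFs. It was the 1 member that fell, by 0.42 on the log2 scale (SE 0.13, adjusted p = 0.009), and the arrays overlapped. Its difference was -0.08 ± 0.14 in KO and -0.18 ± 0.18 in treated MFs, and neither was called, nor was the WT value without replicates 1 to 3 (-0.32, adjusted p = 0.11). Acsl5, a synthetase for long chains, rose by 0.29 ± 0.08 (adjusted p = 0.0018) in WT and 0.30 ± 0.08 (adjusted p = 0.0044) in KO MFs.

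Among the carnitine steps, Crot had the largest difference. It encodes the peroxisomal carnitine octanoyltransferase, which makes medium-chain acylcarnitines for export to mitochondria, and it read 7.68 to 8.19 (median 7.90) in WT Ly6C+ and 8.54 to 9.02 (median 8.71) in WT Ly6C- MFs. The groups were apart, and Crot rose by 0.83 ± 0.11 (adjusted p = 5.3e-08), a 1.78-fold change, with 0.98 ± 0.12 (adjusted p = 1.5e-08) in KO and 0.60 ± 0.16 (adjusted p = 0.0031) in treated MFs. Cpt2, which returns acyl groups from carnitine to coenzyme A inside the mitochondrion, rose by 0.52 ± 0.09 (adjusted p = 9.9e-06) in WT and 0.72 ± 0.10 (adjusted p = 2.3e-07) in KO MFs. Crat, the acetyltransferase for short chains, rose by 0.47 ± 0.06 (adjusted p = 5.2e-08) in WT. Mlycd, which removes the malonyl-CoA that inhibits carnitine transfer, rose by 0.25 ± 0.09 (adjusted p = 0.017) in WT, with 0.22 ± 0.09 in KO, not called. Slc25a20, the carrier of acylcarnitines across the inner membrane, was not called in any of the 3 contrasts (-0.11 ± 0.10 in WT).

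The straight-chain acyl-CoA dehydrogenases rose except that for very long chains. Acadm, for medium chains, read 8.62 to 9.35 (median 9.06) in WT Ly6C+ and 9.69 to 10.27 (median 9.89) in WT Ly6C- MFs, so every Ly6C- array was higher. It rose by 0.90 ± 0.11 (adjusted p = 1.3e-08), 1.87-fold, with 0.85 ± 0.12 in KO and 0.89 ± 0.16 in treated MFs. Acadl, for long chains, read 8.16 to 8.78 (median 8.54) and 9.09 to 9.55 (median 9.34) and rose by 0.83 ± 0.08 (adjusted p = 1.3e-10). Acads, for short chains, read 7.68 to 8.49 (median 8.27) and 8.88 to 9.05 (median 8.92) and rose by 0.73 ± 0.09 (adjusted p = 1.2e-08). All 3 were called in KO and treated MFs as well, and their WT groups did not overlap. Acad9, a dehydrogenase that also helps to assemble respiratory complex I, rose by 0.52 ± 0.09 (adjusted p = 1e-05) in WT. Acadvl, for very long chains, was at 8.03 to 8.22 (median 8.12) in WT Ly6C+ and 7.96 to 8.24 (median 8.16) in WT Ly6C- MFs. Its differences of 0.02 ± 0.06 in WT, 0.06 ± 0.06 in KO and 0.16 ± 0.08 in treated MFs were not called.

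All 4 enzymes of branched-chain breakdown rose in all 3 contrasts, Hibadh by its brighter probe set only. Ivd, the isovaleryl-CoA dehydrogenase of leucine breakdown, read 7.30 to 8.04 (median 7.94) in WT Ly6C+ and 8.84 to 9.33 (median 8.89) in WT Ly6C- MFs. Its difference was 1.21 ± 0.10 (adjusted p = 2.2e-13), 2.32-fold, in WT, 1.05 ± 0.11 in KO and 1.31 ± 0.14 in treated MFs. Acadsb, which acts on isoleucine products, read 7.26 to 7.93 (median 7.58) and 8.17 to 8.50 (median 8.37) and rose by 0.80 ± 0.10 (adjusted p = 2.7e-08). Neither gene had overlapping WT groups. Hibadh, of valine breakdown, rose by 0.57 ± 0.07 (adjusted p = 1.2e-08) in WT by its brighter probe set. A second, dim probe set of Hibadh gave 0.28 ± 0.14 in WT, -0.32 ± 0.15 in KO and -0.08 ± 0.20 in treated MFs, none of them called. Acad8, the isobutyryl-CoA dehydrogenase of the same route, rose by 0.37 ± 0.09 (adjusted p = 0.0013).

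The core mitochondrial steps held the largest difference of the list. Hadh, the hydroxyacyl-CoA dehydrogenase for short and medium chains, read 8.90 to 9.36 (median 9.10) in WT Ly6C+ and 10.60 to 10.90 (median 10.80) in WT Ly6C- MFs. In KO MFs it read 9.45, 9.41, 9.29, 9.24 and 8.93 in Ly6C+ and 10.97, 10.96, 10.77, 10.93 and 10.70 in Ly6C- arrays, and in treated MFs 9.31, 9.47 and 9.26 in Ly6C+ and 10.77, 10.91 and 10.65 in Ly6C- arrays. In each pair of groups more than 1 log2 unit lay between the highest Ly6C+ and the lowest Ly6C- array. The differences were 1.67 ± 0.08 (adjusted p = 1.5e-19), 3.18-fold, in WT, 1.60 ± 0.09 (adjusted p = 1.9e-17) in KO and 1.43 ± 0.12 (adjusted p = 1.6e-12) in treated MFs.

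Echs1, the short-chain enoyl-CoA hydratase, varied more between arrays. It read 8.29, 8.22 and 8.03 in replicates 1 to 3 and 9.04, 7.97 and 8.72 in replicates 4 to 6 of WT Ly6C+ MFs, and 9.20, 9.23 and 9.28 against 9.92, 9.95 and 9.93 in WT Ly6C- MFs. Within each subset, replicates 1 to 3 were thus lower than most of replicates 4 to 6, and over both subsets their difference in Echs1 was -0.55 (adjusted p = 0.00028). The subset difference was 1.21 ± 0.14 (adjusted p = 2.7e-09), 2.31-fold, in WT and 0.79 ± 0.15 (adjusted p = 6.3e-05) in KO MFs. Acaa2, the mitochondrial thiolase of medium and long chains, read 8.80 to 9.55 (median 8.99) and 9.68 to 10.36 (median 10.04) in the WT subsets and rose by 0.92 ± 0.11 (adjusted p = 6e-09). Hsd17b10, a dehydrogenase of short and branched chains that is also a subunit of mitochondrial RNase P, read 9.43 to 10.21 (median 9.69) and 9.98 to 10.66 (median 10.35). Its groups overlapped, and it rose by 0.60 ± 0.10 (adjusted p = 9.1e-06) in WT and 0.45 ± 0.11 (adjusted p = 0.0018) in KO MFs. Hadha and Hadhb, the alpha and beta subunits of the trifunctional protein for long chains, rose by only 0.28 ± 0.07 and 0.41 ± 0.11 in WT, and Hadhb was not called in KO MFs (0.18 ± 0.12). Acat1, the acetoacetyl-CoA thiolase, was not called in any of the 3 contrasts (0.20 ± 0.14 in WT).

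The auxiliary enzymes for double bonds rose throughout. Decr1, the mitochondrial dienoyl-CoA reductase, read 6.16 to 6.62 (median 6.41) in WT Ly6C+ and 7.74 to 8.22 (median 8.07) in WT Ly6C- MFs. Its difference was 1.64 ± 0.10 (adjusted p = 5.2e-17), 3.11-fold, in WT, 1.37 ± 0.11 in KO and 1.48 ± 0.14 in treated MFs. Eci2, an enoyl-CoA isomerase, read 7.21 to 7.59 (median 7.29) and 7.79 to 8.44 (median 8.14) and rose by 0.82 ± 0.09 (adjusted p = 1.1e-09). Ech1, a dienoyl-CoA isomerase, read 8.44 to 9.60 (median 9.18) and 9.58 to 10.16 (median 9.92), where the lowest Ly6C- array lay just under the highest Ly6C+ array. It rose by 0.75 ± 0.11 (adjusted p = 1.1e-06). Eci1, the other enoyl-CoA isomerase, rose by 0.49 ± 0.06 (adjusted p = 1.3e-08).

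In the peroxisome, Decr2, the counterpart of Decr1, read 7.49 to 8.02 (median 7.76) in WT Ly6C+ and 8.86 to 9.16 (median 9.12) in WT Ly6C- MFs. It rose by 1.31 ± 0.09 (adjusted p = 6.1e-15), 2.48-fold, in WT, by 1.17 ± 0.10 in KO and by 1.53 ± 0.13 in treated MFs, with no overlap in any pair. Hsd17b4, the D-bifunctional protein that combines the hydratase and dehydrogenase steps, read 7.65 to 8.58 (median 8.35) and 8.84 to 9.38 (median 9.28) in the WT subsets and rose by 0.98 ± 0.13 (adjusted p = 3.3e-08). Pex7, an import receptor for peroxisomal enzymes, rose by 0.54 ± 0.10 (adjusted p = 4.2e-05), Acox3, an oxidase of branched chains, by 0.48 ± 0.08 (adjusted p = 2.5e-06), and Ehhadh, the L-bifunctional protein, by 0.41 ± 0.08 (adjusted p = 7e-05). The mean of Ehhadh over all arrays, 6.20, was below the median of every array, so it was a dim probe set.

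The electron carriers and thioesterases rose as well. Etfb, the beta subunit of electron transfer flavoprotein, read 9.68 to 10.25 (median 9.99) and 10.43 to 10.92 (median 10.63) in the WT subsets and rose by 0.69 ± 0.09 (adjusted p = 6e-08). Etfa, the alpha subunit, rose by 0.47 ± 0.09 (adjusted p = 2.5e-05), and Etfdh, which passes the electrons on to ubiquinone, by 0.36 ± 0.07 (adjusted p = 5.1e-05). Acot13, a thioesterase at mitochondria, read 7.59 to 8.05 (median 7.83) and 8.67 to 9.16 (median 8.89) and rose by 1.06 ± 0.10 (adjusted p = 5e-12), 2.09-fold. Acot2, a mitochondrial thioesterase, read 8.48 to 8.96 (median 8.84) and 9.17 to 9.68 (median 9.44) and rose by 0.66 ± 0.11 (adjusted p = 1.1e-05). In both genes every WT Ly6C- array was above every WT Ly6C+ array.

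**Figure D3:**
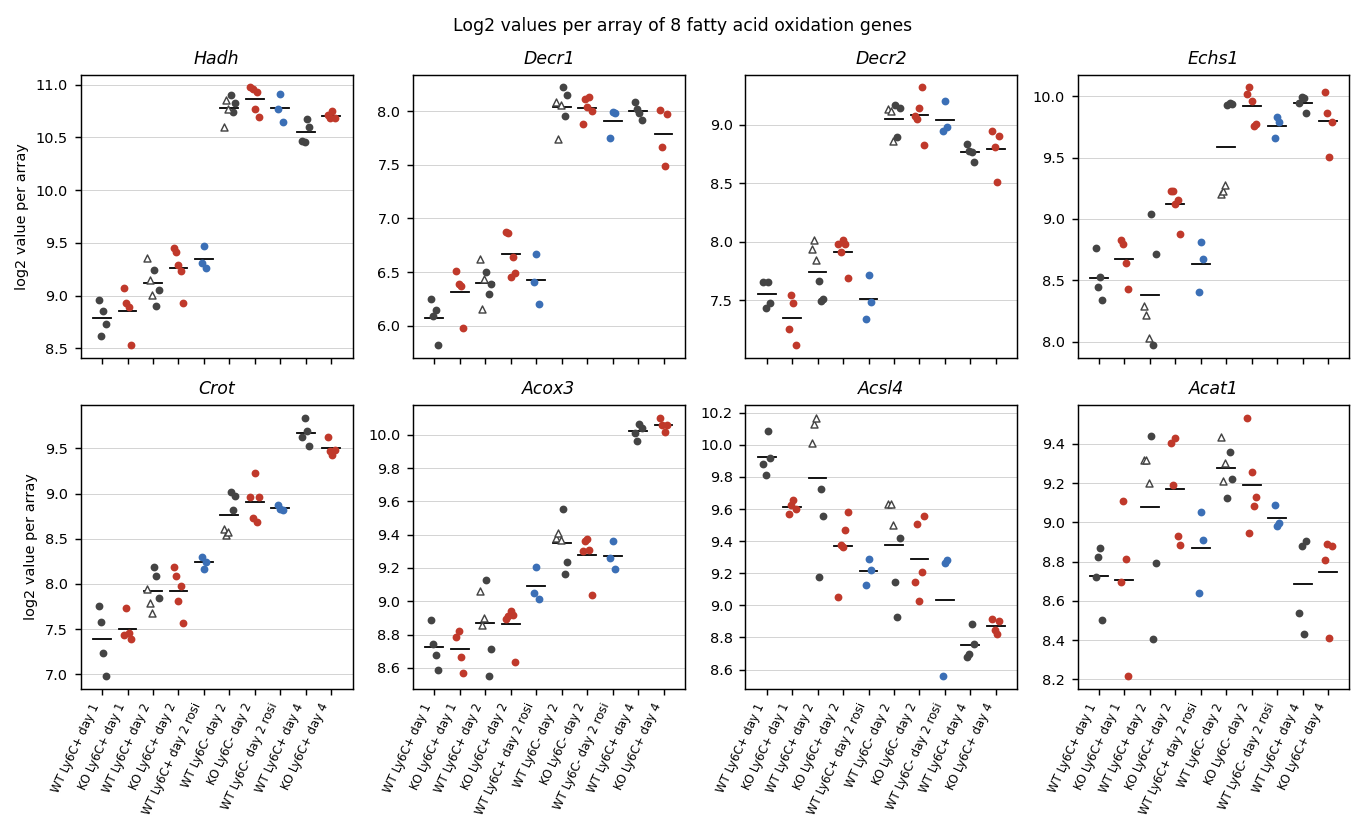
Log2 value per array of 8 members, in panels by gene with axes of their own, with the 10 groups along the bottom, 1 point per array and a line at the group mean. Black is WT, red KO and blue rosiglitazone-treated WT, and open triangles are the arrays labelled WT day 2, replicates 1 to 3. Hadh, Decr1 and Decr2 form a low and a high set of groups with no array between them, Crot and Acox3 are highest at day 4, and Acsl4 is lowest there.

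Genes around the pathway were read from other lists. Of 12 other genes of branched-chain and propionate breakdown, 10 rose and 1 fell in WT Ly6C- MFs, among them Bckdhb (1.20 ± 0.14, adjusted p = 4.8e-09), a subunit of the branched-chain ketoacid dehydrogenase, and Pcca (1.01 ± 0.09, adjusted p = 5.6e-12), a subunit of propionyl-CoA carboxylase, while Auh fell by 0.24. Of 10 genes of fatty acid entry and activation 6 rose, led by the transporters Slc27a1 (1.61 ± 0.09, adjusted p = 5.1e-19) and Cd36 (1.56 ± 0.13, adjusted p = 2.4e-13) and the binding proteins Fabp4 (1.53 ± 0.15, adjusted p = 5.5e-11) and Fabp5 (1.40 ± 0.15, adjusted p = 3e-10). Cpt1a, the step that commits acyl groups to carnitine, rose by 0.42 ± 0.08 (adjusted p = 7.7e-05) in WT and was not called in treated MFs (0.21 ± 0.12). Of 10 other peroxisomal genes 6 rose, led by the transporters Abcd2 (1.48 ± 0.16, adjusted p = 2.3e-10) and Abcd3 (0.83 ± 0.08, adjusted p = 4.6e-11). Oxct1, which uses ketone bodies, rose by 1.05 ± 0.10 (adjusted p = 6.7e-12).

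The rise was not limited to lipid enzymes. Of 18 other mitochondrial enzymes, of the citrate cycle, respiratory chain and import machinery, 17 rose in WT Ly6C- MFs with a median of 0.44, among them Vdac1 (0.97 ± 0.07, adjusted p = 5.1e-15), the outer membrane channel, and Fh1 (0.81 ± 0.12, adjusted p = 7.3e-07), fumarate hydratase. In KO MFs 10 of these 18 rose, and in treated MFs 13. Of 14 regulators and PPAR targets, 4 rose and 2 fell in WT. Rxra rose by 0.85 ± 0.09 (adjusted p = 1.2e-10), Angptl4 by 0.81 ± 0.16 (adjusted p = 8.8e-05), Ppargc1b by 0.47 ± 0.09 (adjusted p = 4.3e-05) and Plin2 by 0.34 ± 0.08 (adjusted p = 0.00029), while Ppard (-0.40 ± 0.08, adjusted p = 5.7e-05) and Rxrb (-0.18 ± 0.07, adjusted p = 0.023) fell. Pparg was not called (0.07 ± 0.12). Markers of cell types moved as well. All 3 monocyte markers measured fell, with an array mean of 11.42 to 11.81 in WT Ly6C+ and 7.61 to 8.38 in WT Ly6C- MFs, and of 6 macrophage markers 3 rose and 1 fell. Of 9 neutrophil markers 1 rose and 5 fell (array means 6.35 to 6.70 and 6.02 to 6.14), and of 7 markers of fibroblasts and endothelium 0 rose and 5 fell (6.82 to 7.51 and 6.69 to 6.83). Of 4 adipocyte markers 0 were called, and their array means ran from 5.61 to 6.09 over all groups. Of 12 muscle fiber markers 2 rose and 2 fell (6.83 to 6.99 and 6.97 to 7.13), with Acta1, the actin of muscle fibers, at 0.08 ± 0.07, not called. Fabp3, a fatty acid binding protein of heart and muscle, was the marker that rose most, by 1.43 ± 0.12 (adjusted p = 5.1e-13) in WT, 1.20 ± 0.13 (adjusted p = 9.4e-10) in KO and 2.05 ± 0.17 (adjusted p = 8.5e-13) in treated MFs. The part of cell makeup in the member differences was not tested.

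The time course asked how the members changed in cells labelled Ly6C+. From day 1 to day 2 few members changed in WT MFs. Of 37 members 4 rose and 0 fell (limma), against 6.51% and 3.17% of genes, and the median member difference was 0.13. Crot read 7.75, 7.58, 7.24 and 6.98 at day 1 and rose by 0.54 ± 0.12 (adjusted p = 0.003), Hsd17b4 read 7.93, 7.59, 7.73 and 7.62 and rose by 0.52 ± 0.14 (adjusted p = 0.013), Cpt2 read 7.90, 7.76, 7.87 and 7.93 and rose by 0.42 ± 0.10 (adjusted p = 0.0053), and Hadh read 8.95, 8.62, 8.85 and 8.73 and rose by 0.33 ± 0.10 (adjusted p = 0.02). For Cpt2 alone did every day 2 array lie above every day 1 array, which held for 3.74% of genes. Without WT replicates 1 to 3, Crot and Cpt2 were still called, and Hsd17b4 (0.30, adjusted p = 0.28) and Hadh (0.28, adjusted p = 0.12) were not. In all, 2 members rose and 1 fell without that set, and 9 rose and 2 fell without replicates 4 to 6. The share of all genes called in these fits is not given. Neutrophil markers moved over the same interval, with 0 of 9 higher and 4 lower (lowest -1.79), and their array means ran from 7.09 to 7.16 at day 1 and from 6.35 to 6.70 at day 2. Their part in the member differences was not tested. With each array centred on its median, the split of all genes moved from 1298 higher and 633 lower to 737 and 831.

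In KO MFs 13 members rose from day 1 to day 2 and 0 fell, against 6.06% and 2.58% of genes, with a median of 0.28. Hsd17b4 read 8.02, 7.96, 7.56 and 7.42 at day 1 and 8.49, 8.55, 8.56, 8.35 and 8.04 at day 2 and rose by 0.66 ± 0.15 (adjusted p = 0.0039), 1.58-fold, with no overlap. Decr2 read 7.25, 7.55, 7.48 and 7.12 and 7.98, 7.91, 8.01, 7.98 and 7.69 and rose by 0.57 ± 0.11 (adjusted p = 0.00072), and Pex7 read 7.07, 6.96, 6.76 and 6.92 and 7.54, 7.58, 7.49, 7.45 and 7.40 and rose by 0.57 ± 0.12 (adjusted p = 0.0021), both with no overlap. These 3 had the largest differences, and all belong to the peroxisome. Of the 5 members grouped as peroxisomal, Acox3 and Ehhadh were not called, and both thioesterases rose. Acadm, Acot2, Acot13, Crot, Hadh, Acad9, Hibadh, Decr1, Etfa and Acsl5 rose by 0.30 to 0.49. In 12 members all KO day 2 arrays lay above all KO day 1 arrays, as in 7.26% of genes. The count was 6 without KO day 1 replicate 4 and 8 without KO Ly6C+ day 2 replicate 2. The difference between the genotypes' changes was called for 0 members (0.01% of genes), with 5 members and 8.94% of genes at an unadjusted p below 0.05. It was called for 4 members without WT replicates 4 to 6 and for 0 without replicates 1 to 3. The share of all genes called in these fits is not given. Of 9 neutrophil markers 0 were higher and 3 lower at day 2 in KO MFs (lowest -1.86), with array means of 7.06 to 7.22 at day 1 and 6.46 to 6.87 at day 2, and their part there was not tested either. Centring each array moved the split of all genes from 1209 higher and 514 lower to 808 and 555.

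From day 2 to day 4 most members rose in both genotypes. In WT MFs 31 of 37 rose and 3 fell, against 23.8% and 26% of genes, and 20 rose by at least 1.5-fold, as 10.8% of genes did. The median member difference was 0.67, and all day 4 arrays lay above all day 2 arrays for 30 members (16.9% of genes). Without WT replicates 1 to 3, 28 rose and 1 fell, and without replicates 4 to 6, 30 rose and 3 fell. In KO MFs 27 rose and 3 fell, against 22.3% and 22.5% of genes, with a median of 0.52. All KO day 4 arrays lay above all KO day 2 arrays for 24 members (21% of genes). With 31 of 37 members higher in WT, most higher calls in KO would be shared in any case. The genotypes shared 26 of the higher calls, 83.9% of the WT and 96.3% of the KO calls, and all 3 lower ones. The difference between their changes was called for 0 members (0.0301% of genes), with 10 members and 8.46% of genes at an unadjusted p below 0.05. It was called for 6 members without WT replicates 4 to 6 and for 0 without replicates 1 to 3. The share of all genes called in these fits is not given. In the fit of all arrays, Echs1 had the largest such difference, not called (-0.89 ± 0.23, adjusted p = 0.16).

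Crot rose most. In WT MFs labelled Ly6C+ it read 7.75, 7.58, 7.24 and 6.98 at day 1, 7.68 to 8.19 (median 7.90) at day 2 and 9.62, 9.84, 9.69 and 9.52 at day 4. In KO MFs it read 7.44, 7.73, 7.45 and 7.39, then 8.18, 8.09, 7.81, 7.98 and 7.57, then 9.62, 9.47, 9.43 and 9.49. The day 4 arrays were above all earlier ones in both genotypes, and the change from day 2 was 1.74 ± 0.12 (adjusted p = 2.2e-15), 3.35-fold, in WT and 1.58 ± 0.13 (adjusted p = 1.7e-13), 2.98-fold, in KO MFs. Decr1 read 8.09, 8.02, 7.99 and 7.92 in WT and 8.01, 7.67, 7.49 and 7.97 in KO MFs at day 4, a rise of 1.60 ± 0.11 and 1.12 ± 0.12. Hadh read 10.47, 10.45, 10.67 and 10.60 and 10.72, 10.69, 10.75 and 10.68 and rose by 1.43 ± 0.10 and 1.44 ± 0.10. Echs1 read 9.95, 9.99, 9.98 and 9.86 and 10.04, 9.86, 9.50 and 9.79, and its rise was 1.57 ± 0.16 (adjusted p = 3.8e-11) in WT and 0.68 ± 0.16 (adjusted p = 0.00072) in KO MFs.

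Other steps rose with them. Among dehydrogenases, Acadm read 10.25, 10.07, 10.15 and 10.05 at day 4 in WT MFs and rose by 1.10 ± 0.13 (adjusted p = 9.7e-10), and in KO MFs by 0.80 ± 0.13 (adjusted p = 2.1e-06). Among branched-chain enzymes, Ivd read 9.04, 9.05, 8.95 and 9.03 and rose by 1.21 ± 0.11 (adjusted p = 2.7e-12) in WT and 0.86 ± 0.11 (adjusted p = 3.4e-08) in KO MFs. In the peroxisome, Acox3 read 10.01, 9.96, 10.06 and 10.04 in WT and 10.10, 10.06, 10.02 and 10.06 in KO MFs at day 4, and all 8 arrays lay above every other array of the series. It rose by 1.15 ± 0.09 (adjusted p = 1.5e-14) in WT and 1.20 ± 0.09 (adjusted p = 1.8e-14) in KO. Hsd17b4 read 9.50, 9.34, 9.40 and 9.30 in WT and 9.49, 9.42, 9.02 and 9.38 in KO MFs and rose by 1.14 ± 0.14 and 0.93 ± 0.15. Decr2 read 8.84, 8.78, 8.77 and 8.68 and 8.95, 8.81, 8.51 and 8.90 and rose by 1.02 ± 0.10 and 0.88 ± 0.11. The thioesterase Acot13 read 8.94, 8.87, 8.84 and 8.75 in WT and rose by 1.04 ± 0.11 (adjusted p = 1.1e-10), and Acot2 read 9.74, 9.80, 9.70 and 9.64 in KO and rose by 0.86 ± 0.13 (adjusted p = 1.1e-06). Cpt2, of the carnitine steps, read 9.20, 8.97, 9.13 and 9.13 in KO and rose by 0.91 ± 0.11 (adjusted p = 2.1e-09).

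The same 3 members fell in both genotypes. Acsl4 read 8.68, 8.69, 8.88 and 8.76 in WT and 8.92, 8.85, 8.82 and 8.90 in KO MFs at day 4, below all 6 WT and all 5 KO Ly6C+ arrays of day 2. It fell by 1.04 on the log2 scale (SE 0.15, adjusted p = 1.2e-07) in WT and by 0.50 (SE 0.15, adjusted p = 0.0073) in KO MFs. Acat1, which also serves ketone body and isoleucine breakdown, changed by -0.39 ± 0.16 (adjusted p = 0.036) and -0.42 ± 0.16 (adjusted p = 0.032), and Slc25a20 by -0.27 ± 0.11 (adjusted p = 0.032) and -0.37 ± 0.11 (adjusted p = 0.0063). The WT values of both were not called without WT replicates 1 to 3 (-0.19 and -0.12, adjusted p = 0.44 each). Of the 3 electron carriers only Etfb was called in WT (0.57 ± 0.10, adjusted p = 1.1e-05) and only Etfdh in KO MFs (0.24 ± 0.08, adjusted p = 0.013). Hibadh depended on its probe set: the brighter one rose by 0.39 ± 0.08 in WT and the dim one fell by 0.52 (SE 0.15, adjusted p = 0.0057).

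Against the Ly6C- MFs of day 2, the day 4 arrays differed in fewer members and in both directions. In WT 5 members were higher and 5 lower, against 14.1% and 15.2% of genes, and the median difference was -0.03. Without WT replicates 1 to 3, 4 were higher and 6 lower, and without replicates 4 to 6, 8 were higher and 4 lower. In KO MFs 4 were higher and 7 lower, against 13.1% and 11.8% of genes, with a median of -0.09. Of the higher calls 4 were shared (80% of the WT and 100% of the KO calls), and of the lower calls 5 (100% and 71.4%). Arrays did not overlap for 4 higher and 4 lower members in WT (11.4% of genes each way) and for 3 higher (13%) and 4 lower members in KO (12.4%). With each array centred on its median the members split 5 and 8 in WT and 3 and 8 in KO, and all genes moved from 2816 higher and 3034 lower to 2335 and 3790 in WT and from 2607 and 2343 to 2076 and 2838 in KO.

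**Figure D4:**
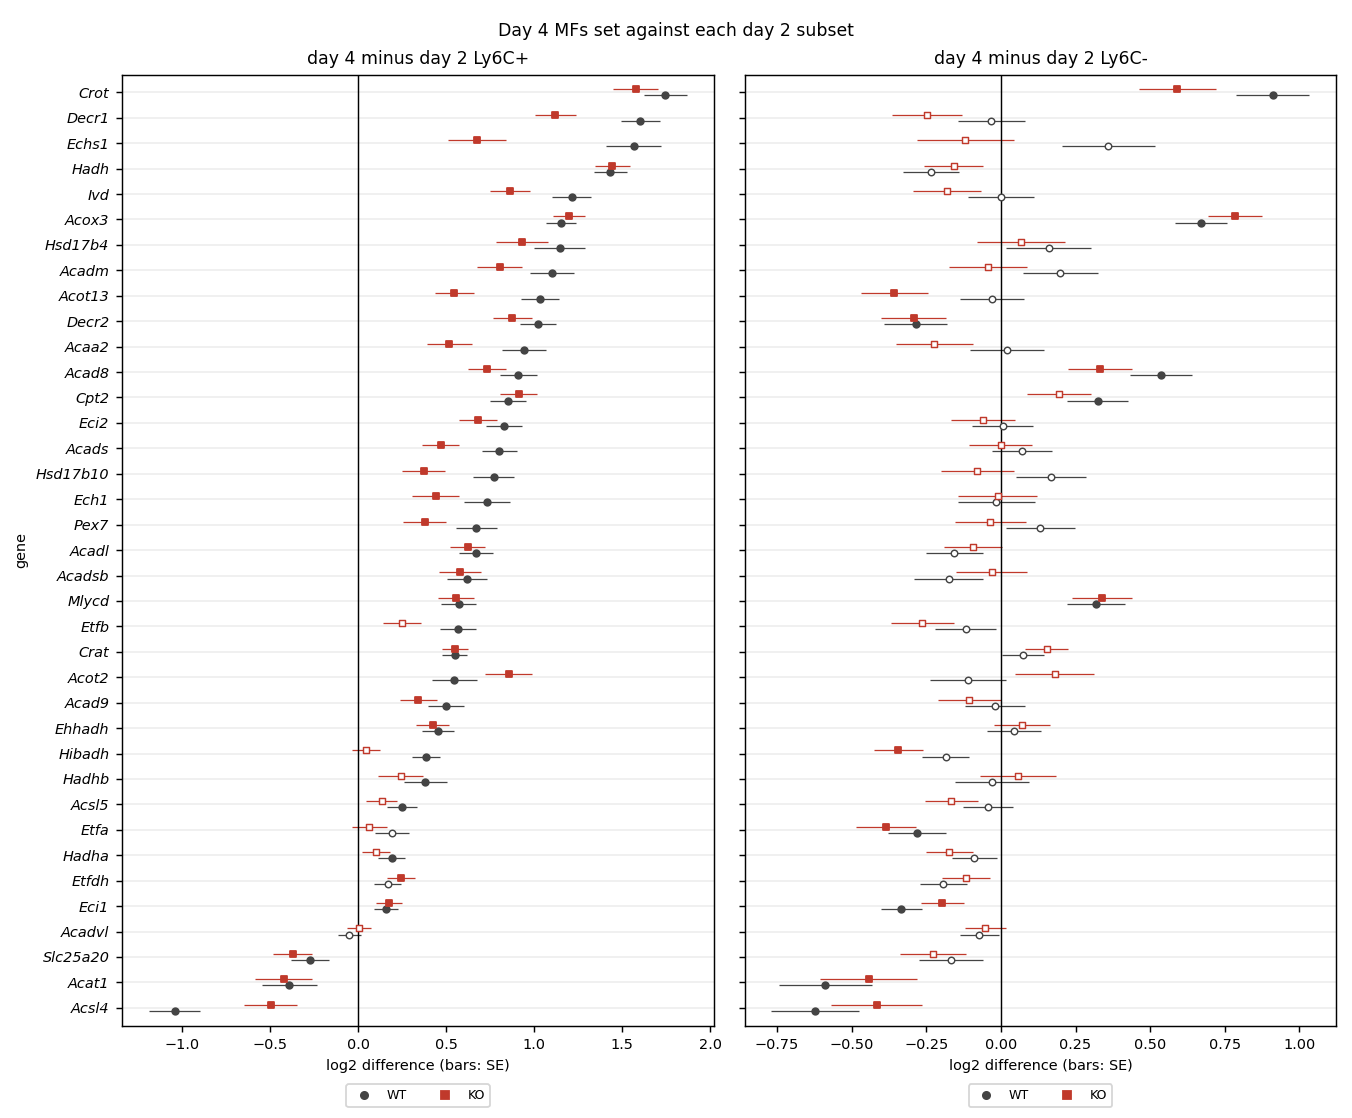
Log2 difference of each member between the day 4 arrays, labelled Ly6C+, and Ly6C+ or Ly6C- MFs of day 2, with its standard error, in WT and KO MFs, with filled points for called members. Against the Ly6C+ arrays nearly all members lie above 0, and against the Ly6C- arrays they lie on both sides of 0, with Crot and Acox3 the highest in both genotypes and Acsl4 and Acat1 the lowest.

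Crot and Acox3 led the higher members, which were 13.5% of members in WT and 10.8% in KO, near the shares of all genes. Of the 5 members grouped as peroxisomal, Acox3 was higher, Decr2 was lower and 3 were not called in each genotype. Acox3 was higher than in Ly6C- MFs of day 2, which read 9.16 to 9.55 (median 9.37) in WT and 9.30, 9.36, 9.37, 9.31 and 9.04 in KO, by 0.67 ± 0.09 (adjusted p = 4.5e-08) and 0.78 ± 0.09 (adjusted p = 4.6e-09). Crot, which read 8.54 to 9.02 (median 8.71) and 8.96, 8.73, 9.23, 8.68 and 8.96 there, was higher by 0.91 ± 0.12 (adjusted p = 1.1e-07) and 0.59 ± 0.13 (adjusted p = 0.00036). Mlycd was higher by 0.32 ± 0.10 (adjusted p = 0.0096) and 0.34 ± 0.10 (adjusted p = 0.0095), and Acad8 by 0.54 ± 0.10 (adjusted p = 6.5e-05) and 0.33 ± 0.11 (adjusted p = 0.019). Cpt2 was called in WT (0.32 ± 0.10, adjusted p = 0.013) but not without WT replicates 1 to 3 (0.19, adjusted p = 0.27), and in KO MFs it was 0.19 ± 0.11. Of 10 other peroxisomal genes 4 were higher and 1 lower in both genotypes, led by Abcd2 (0.98 ± 0.17 in WT).

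The lower members shared by both genotypes were Acsl4 (-0.62 ± 0.15, adjusted p = 0.00079 in WT), Acat1 (-0.59 ± 0.16, adjusted p = 0.003), Eci1 (-0.33 ± 0.07, adjusted p = 0.00015), Decr2 (-0.29 ± 0.10, adjusted p = 0.034) and Etfa (-0.28 ± 0.10, adjusted p = 0.025). Decr2 was not called in WT without replicates 1 to 3 (-0.30, adjusted p = 0.053) or without replicates 4 to 6 (-0.27, adjusted p = 0.062). In KO MFs Acot13 (-0.36 ± 0.11, adjusted p = 0.014) and Hibadh (-0.34 ± 0.08, adjusted p = 0.0011) were lower too. Of the genes of entry, Fabp4 differed by -1.65 ± 0.17 in WT and -1.70 ± 0.18 in KO, and Cd36 by -0.74 ± 0.14 and -0.73 ± 0.15. Of 18 other mitochondrial enzymes 0 were higher and 6 lower in WT, and 0 and 9 in KO, with Hspd1, a matrix chaperone, at -0.88 ± 0.12 in WT. Between day 2 and day 4 Ly6C+ arrays, 9 of these 18 rose and 2 fell in WT, with a median of 0.27, and 4 rose and 5 fell in KO, with a median of 0.10.

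Markers of muscle fibers, which are rich in these enzymes, also moved at day 4. The mean over 12 fiber markers ran from 7.30 to 7.44 on the 8 day 4 arrays and from 6.76 to 7.13 on the others. From day 2 to day 4 in WT, 8 of the 12 rose and 0 fell, with Acta1 at 8.84 ± 0.16 (SD, n = 4) at day 4 and 7.52 ± 0.13 (SD, n = 6) at day 2. Against the Ly6C- MFs of day 2 in WT, where the members split evenly, 6 of the 12 were still higher and 0 lower. In KO 9 were higher and 1 lower. Neutrophil markers ran the other way, with 7 of 9 lower at day 4 than at day 2 in WT and 5 of 9 in KO. Of 6 macrophage markers 5 rose and 1 fell (-0.71) in WT, and 4 rose and 1 fell (-0.69) in KO. All 3 monocyte markers fell from day 2 to day 4 in both genotypes, with a median of -2.11 in WT and -2.67 in KO, and their array means at day 4 ran from 8.22 to 8.73. Against the Ly6C- MFs of day 2, 2 of the 3 were higher and 1 lower in both genotypes. Of 7 markers of fibroblasts and endothelium, 3 were higher and 0 lower against these Ly6C- MFs in WT, and 2 and 0 in KO. Against the Ly6C+ MFs of day 2, 1 was higher and 2 lower in WT, and 1 and 1 in KO. The part of these cell types in the member differences was not tested.

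The next comparison asked whether loss of PPARg in myeloid cells changed the members. At an adjusted p below 0.05 (limma), 0 members were called at day 1 (0.0351% of genes), 0 in Ly6C- MFs of day 2 (0.201% of genes) and 0 at day 4 (0.0652% of genes). At an unadjusted p below 0.05 there were 1 member and 3.11% of genes at day 1, 3 members and 9.92% of genes in Ly6C- MFs of day 2, and 1 member and 2.97% of genes at day 4. In Ly6C- MFs of day 2 the count of called members was 7, with 6 higher and 1 lower, without WT replicates 4 to 6, and 0 without replicates 1 to 3. The share of all genes in these fits is not given, so the count of 7 is not read against it. In Ly6C+ MFs of day 2, 3 members rose and 0 fell, against 1.09% and 0.787% of genes, and 12 members passed an unadjusted p below 0.05, as did 15.6% of genes. Members of the core and branched-chain steps were involved. Echs1 read 8.29, 8.22, 8.03, 9.04, 7.97 and 8.72 in WT and 9.23, 9.23, 9.13, 9.15 and 8.88 in KO arrays and rose by 0.74 ± 0.15 (adjusted p = 0.0046), 1.67-fold. Acaa2 read 9.50, 9.66, 9.69, 9.51 and 9.39 in KO arrays and rose by 0.43 ± 0.12 (adjusted p = 0.042), and Hibadh read 9.22 to 9.76 (median 9.61) in WT and 9.92, 9.97, 9.79, 9.75 and 9.81 in KO arrays and rose by 0.31 ± 0.07 (adjusted p = 0.021). In all 3 genes the groups overlapped. Of 7 markers of fibroblasts and endothelium 3 were lower in KO (lowest -0.72), with array means of 6.82 to 7.51 in WT and 6.90 to 6.97 in KO arrays, and their part in the member differences was not tested.

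These calls changed with the WT arrays used. Without WT replicates 1 to 3, only Echs1 was called (0.55, adjusted p = 0.045). With only the arrays of these groups in the fit, 0 members were called. Without WT replicates 4 to 6, the count was 8, of which 7 were higher and 1 was lower. It was 7 without WT Ly6C+ day 2 replicate 4 and 1 without WT replicate 5, KO replicate 1 or KO replicate 2. The share of all genes called in these fits is not given, so the counts are not read against it. Between the 2 sets of WT arrays themselves, 3 members were higher and 7 lower in replicates 1 to 3, and 20.8% of all genes differed. Echs1, Acaa2 and Hsd17b10 were among the lower ones and Acsl4 among the higher. Pex7 was the 1 member whose KO arrays (7.54, 7.58, 7.49, 7.45 and 7.40) all lay above the WT arrays (6.79 to 7.32, median 7.23), as did 0.722% of genes, and it was not called (0.32 ± 0.11, adjusted p = 0.11). The lowest difference in Ly6C+ MFs of day 2 was that of Acsl4 (-0.42), not called. At day 1, Acsl4 read 9.57 to 9.66 in KO and 9.82 to 10.09 in WT arrays, and Acadvl read 7.82 to 8.08 and 8.09 to 8.12. In both, every KO array lay below every WT array, and neither was called. The share of all genes with this pattern is not given. In Ly6C- MFs of day 2, member differences ran from -0.27 in Hadhb to 0.33 in Echs1, neither of them called. At day 4 they ran from -0.22 to 0.41, and the highest was Acot2 (0.41 ± 0.14, adjusted p = 1). Its KO arrays (9.74, 9.80, 9.70 and 9.64) all lay above its WT arrays (9.12, 9.26, 9.42 and 9.46), which was also so for Hadh (0.16 ± 0.10) and for 1.73% of genes.

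**Figure D5:**
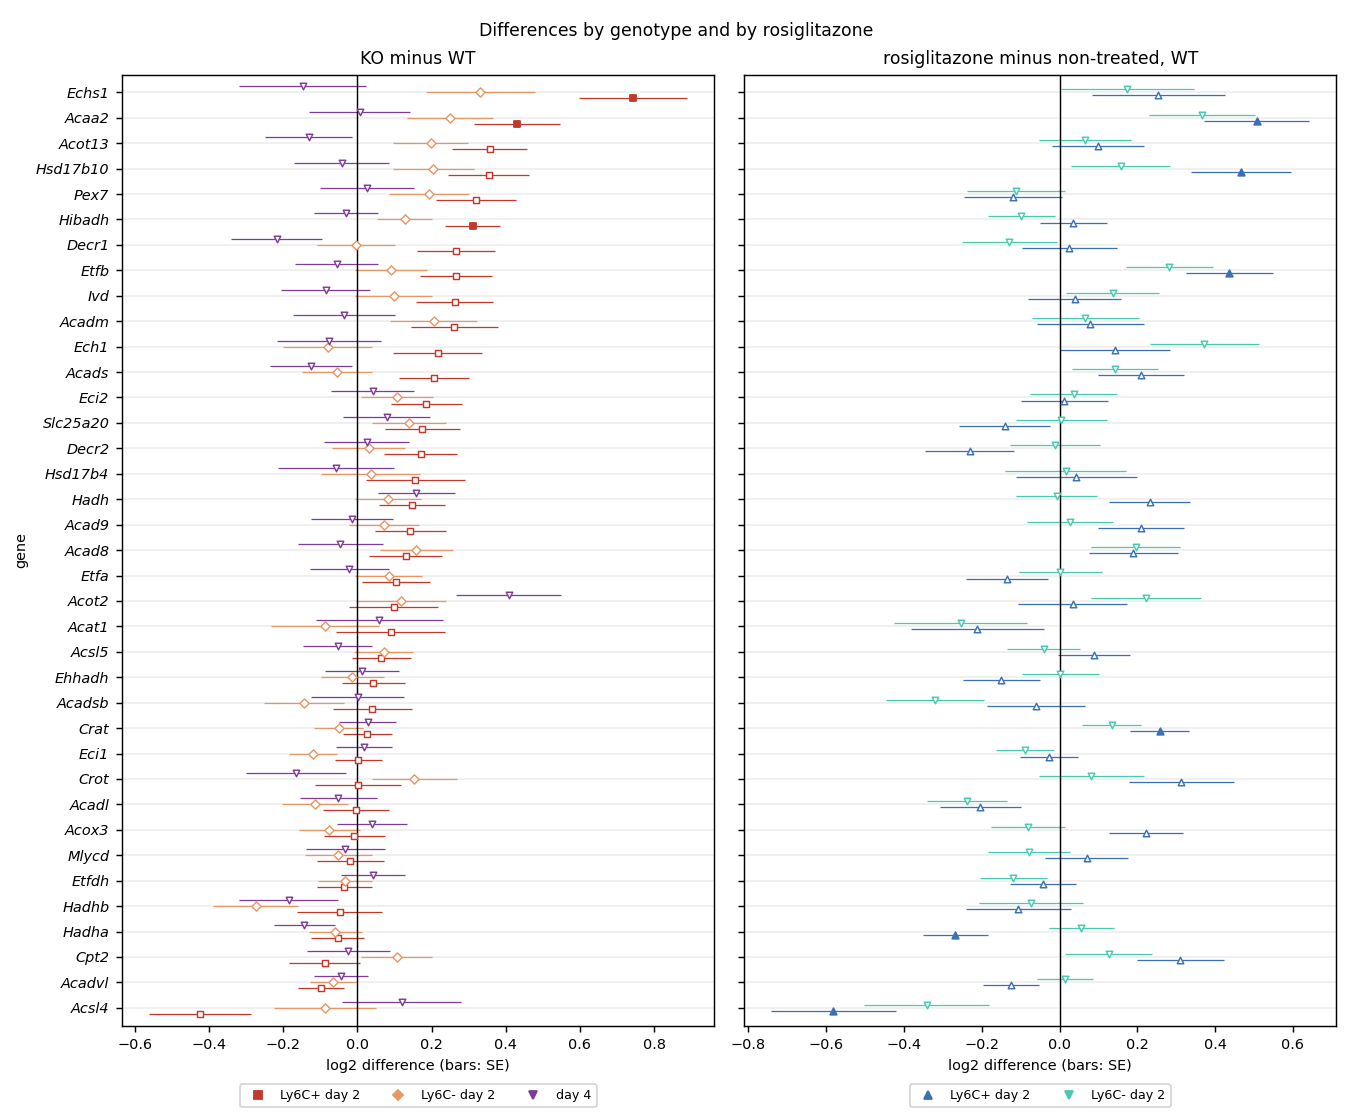
Log2 difference of each member, with its standard error, between KO and WT MFs in Ly6C+ and Ly6C- MFs of day 2 and at day 4 (left), and between rosiglitazone-treated and non-treated WT MFs in both subsets of day 2 (right). Filled points are called at an adjusted p below 0.05, which were 3 members for KO in Ly6C+ MFs of day 2 and 6 for rosiglitazone in Ly6C+ MFs, with 0 in the other settings.

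Rosiglitazone was compared with no treatment in WT MFs of day 2. In Ly6C+ MFs 4 members rose and 2 fell, against 5.52% and 5.6% of genes, and 10 members passed an unadjusted p below 0.05, as did 25.2% of genes. Etfb read 10.35, 10.55 and 10.27 in the 3 treated arrays, all above the non-treated ones (2.58% of genes), and rose by 0.44 ± 0.11 (adjusted p = 0.0088). Acaa2 read 9.40, 10.01 and 9.47 and rose by 0.51 ± 0.14 (adjusted p = 0.012), Hsd17b10 read 10.18, 10.25 and 10.18 and rose by 0.47 ± 0.13 (adjusted p = 0.014), and Crat read 9.85, 10.07 and 9.92 against 9.56 to 9.91 (median 9.67) and rose by 0.26 ± 0.08 (adjusted p = 0.024). Acsl4 read 9.12, 9.29 and 9.22 and fell by 0.58 (SE 0.16, adjusted p = 0.015), and Hadha read 9.84, 10.13 and 9.65 against 9.99 to 10.31 (median 10.14) and fell by 0.27 (SE 0.08, adjusted p = 0.03). Etfb aside, each of these overlapped with the non-treated arrays. Of the 7 markers of fibroblasts and endothelium 3 were lower with rosiglitazone (median -0.39), with array means of 6.80 to 6.92 in the treated arrays, and their part in the member differences was not tested.

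These 6 calls changed with the WT arrays too. Without replicates 1 to 3, 0 members were called, and Acsl4, for example, differed by -0.27 (adjusted p = 0.41). Without replicates 4 to 6, 6 members rose and 3 fell, and the Acsl4 difference was -0.89 (adjusted p = 3.6e-06). Leaving out treated replicate 1, 2 or 3 gave 3, 3 or 2 calls. With each array centred on its median the members split 5 and 1, and all genes moved from 1101 higher and 1117 lower to 1468 and 739. In Ly6C- MFs 0 members were called (0.0351% of genes), and 6 members passed an unadjusted p below 0.05, as did 9.63% of genes, with member differences from -0.34 to 0.37. The count was 7 there without WT replicates 4 to 6 and 0 without replicates 1 to 3. The share of all genes called in these fits is not given, so the counts are not read against it. Angptl4, a PPAR target outside the list, rose with rosiglitazone in Ly6C- MFs by 1.42 ± 0.20 (adjusted p = 8.1e-05), 2.68-fold, and was 0.41 ± 0.20 in Ly6C+ MFs, not called. The difference between these responses was 1.01 ± 0.28 (adjusted p = 0.25). Cpt1a was called in Ly6C+ MFs (0.46 ± 0.10, adjusted p = 0.0033), where Fabp4 and Fabp5 fell by 0.65 and 0.60 (adjusted p = 0.019 and 0.027). These genes outside the list were read with all WT arrays only. How far their values depend on the set of WT replicates is not known.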

How the data were processed

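Total RNA of sorted MFs was hybridised to one-colour Affymetrix mouse gene arrays. The deposited values are log2 signals, normalized by the authors with RMA, which corrects background, makes the distributions of the arrays equal and summarises the probes of each probe set. Array medians ran from 6.64 to 6.77, and no pair of arrays was identical. Precision is limited by how many arrays a group has. Of 35556 probe sets, 21789 carried 1 gene symbol, 1621 several and 12146 none, by the platform annotation. The brightest probe set stood for each of 19938 genes.

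Groups came from the sample labels. A model of 10 group means over all 44 arrays was fitted with limma 3.58.1 in R 4.3.3 (lmFit, eBayes), with Benjamini-Hochberg adjustment over all genes, and a gene was called at an adjusted p below 0.05. The fit was tested on simulated data. Members and lists were chosen with earlier results of these data known. Values are given for members called at 1.5-fold or more between the WT subsets and for up to 10 members by size elsewhere, and for up to 4 called genes of each other list. Alternatives were centring on array medians, leaving out dim genes, averaging probe sets, and fitting only the groups compared, without or with a replicate block. Replicates or sets of WT day 2 replicates were also left out. Except for centring, counts of members under an alternative are given without the share of all genes called there. They show only how the main counts move.

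Replicate numbers in the labels were checked for pairing. In rosiglitazone-treated MFs all 3 pairs of subsets deviated together (correlation 0.13 to 0.44). With the pair as a block and only these arrays in the fit, 30 members were called between subsets, against 27 in the main fit. Elsewhere some pairs lay at or below a correlation of 0.1. Promoter windows came from RefSeq (GRCm38.p6).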

Additional observations from a re-analysis of the deposited data

Results flagged for a closer look

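In groups of 4 to 6 arrays, 15 of 296 tests of a member in a group found 1 array far from the others by Dixon's criterion, and chance flags about 1 in 20 groups. Of these 15, 7 were KO arrays of replicate 5. In KO Ly6C+ MFs of day 2, that replicate read 7.49 for Acad8 (median of the others 7.79), 7.37 for Eci2 (7.57), 8.64 for Acox3 (8.92) and 10.01 for Etfb (10.26). In KO Ly6C- MFs of day 2, it read 8.45 for Acadsb (8.16), 9.04 for Acox3 (9.33) and 9.07 for Acot2 (9.67). It was thus low in 6 of the 7 and high for Acadsb.

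Among WT arrays of day 2, replicate 5 of the Ly6C- MFs was low for Hadhb (8.15, others 8.85) and Hsd17b4 (8.84, others 9.31), and replicate 5 of the Ly6C+ MFs was low for Pex7 (6.79, others 7.30). Replicate 4 of the Ly6C- MFs was high for Crat (10.35, others 10.11). At day 1, WT replicate 1 was high for Pex7 (7.47, others 7.02). At day 4, WT replicate 2 was low for Ech1 (9.73, others 9.93) and high for Ehhadh (6.60, others 6.43), and KO replicate 3 was low for Acat1 (8.41, others 8.88).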

How the results depend on the processing

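The subset contrasts and the changes from day 2 to day 4 kept their counts within 1.5 times under every alternative run. The members called were 29 to 34 in WT and 30 to 33 in KO and 23 to 30 in rosiglitazone-treated MFs between subsets, and 29 to 34 in WT and 27 to 31 in KO MFs from day 2 to day 4. Smaller counts moved. Fitting only the arrays of the groups compared gave 0 members from day 1 to day 2 in WT, 0 for KO against WT and 0 for rosiglitazone in Ly6C+ MFs. Without WT day 2 replicates 4 to 6, there were 11 members from day 1 to day 2 in WT, 8 for KO in Ly6C+ and 7 in Ly6C- MFs, 7 for rosiglitazone in Ly6C- MFs, and 4 and 6 for the differences between genotypes in the changes to day 2 and to day 4. Without replicates 1 to 3, there were 1 for KO and 0 for rosiglitazone in Ly6C+ MFs. The cause was not tested.

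Leaving out 1 array gave 2 to 5 members from day 1 to day 2 in WT (2 without day 1 replicate 2 or 4) and 6 to 19 in KO MFs. It gave 6 to 10 for KO MFs of day 4 against Ly6C- MFs (7 without KO Ly6C- day 2 replicate 2, 6 without KO day 4 replicate 3). For KO in Ly6C+ MFs the range was 1 to 7, for rosiglitazone in Ly6C+ MFs 2 to 9, and for the genotypes' difference in the change to day 4 it was 0 to 1 (1 without WT Ly6C+ day 2 replicate 4). For single members, 2895 values kept direction and side of the threshold, 229 lost the call and 1 turned: Hibadh from day 2 to day 4 in WT was -0.065 (adjusted p = 0.56) with its probe sets averaged.

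In the labels, arrays of different groups share only a replicate number, treated or not, and the main fit did not use it. Fits with that number as a block also held only the arrays of the groups compared. In them 23 members were called from day 1 to day 2 in KO MFs and 0 for KO in Ly6C+ MFs. For rosiglitazone 10 and 2 were called in Ly6C+ and Ly6C- MFs. Since both settings changed at once, these counts do not show what the block alone does. No other count moved by over 1.5 times. In WT, 3 of 6 pairs of subsets correlated best with their own number, and in KO 4 of 5. Their correlations ran from 0.01 to 0.60 in WT, with 5 of 6 over 0.1, and from 0.04 to 0.29 in KO, with 4 of 5. Whether such pairs came from the same muscles is not given in the labels.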
